A study of Arabidopsis thaliana with 23 samples.

Results

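Transcripts of whole Arabidopsis thaliana seedlings (ecotype Col-0) that received the auxin antagonist PEO-IAA and the auxin IAA together were compared with those of mock-treated seedlings. The comparison takes 6 of the 23 arrays of the series, chosen by their titles: the 3 arrays labelled PEO-IAA+IAA and the 3 mock arrays with the same replicate numbers, 1 to 3, each array being paired with the array of its number. The seedlings of the first group were given 10 µM PEO-IAA and 1 µM of the natural auxin indole-3-acetic acid, IAA, for 3 h. Mock seedlings were handled for the same time, and their labels name no compound. All seedlings had grown for 6 or 7 days on agar and for 1 day in liquid medium, and none is labelled as a mutant or transgenic line. Each compound given alone, 1 µM IAA or 10 µM PEO-IAA, is held by 3 further arrays of replicates 1 to 3. Replicates 4 and 5 hold 10 µM PPBo plus, as labelled, 1 µM IAA, 100 nM IAA and a mock of their own, with 2 arrays each, and share no array with the comparison described here. The remaining arrays hold 30 µM kynurenine in replicates 1 to 3 and 10 µM PPBo alone in replicates 4 and 5. They enter the shared fit but none of the contrasts. Whether the replicates are separate cultures is not recorded, so p-values reflect the spread from sample to sample, which may be technical.

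Auxin acts by bringing Aux/IAA repressor proteins to the TIR1/AFB receptors, F-box proteins that have the repressors degraded. Without the repressors, ARF transcription factors switch on early target genes, among them the GH3, Aux/IAA and some LBD families. PEO-IAA is an IAA derivative that occupies the auxin pocket of the receptor and keeps the repressor from docking. PPBo blocks the YUCCA enzymes of auxin synthesis, upstream of the receptor. With the antagonist and auxin given together, the comparison asks which transcripts stand above or below the mock level.

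The values are MAS5 signals, a linear intensity for each probe set (the set of oligonucleotides for a transcript) on each array. Changes are given as log2 fold changes ± SE on the scale log2(signal + 7.56), which understates the change of dim probe sets, and a probe set was called at a Benjamini-Hochberg adjusted p below 0.05 in limma. Median correlations of the 6 arrays with all other arrays lay between 0.952 and 0.969, and their 3′ to 5′ GAPDH signal ratios, a measure of RNA integrity, between 1.22 and 1.45. The third array with 1 µM IAA alone stood apart, at 0.879 and 7.14. It is not among the 6, but it enters the spread estimate that all arrays share, and each difference from IAA alone is therefore given with and without it. Detection calls were not used here, so low signals are the least certain, and 6 arrays limit the precision.

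Seedlings with PEO-IAA plus IAA differed from mock in 262 of 15922 tested probe sets, which is 1.65%. Of these, 122 (0.766%) were higher and 140 (0.879%) were lower than in mock. The arrays of the groups did not overlap in 247 of the 262, whereas arrays did not overlap in 1914 of all tested probe sets (12%). All 3 replicate pairs moved the same way in 262 of the 262, a count not made over all tested probe sets. The calls were made from these same arrays and pairs, so neither count is separate support. The median size of a called change was 1.00 on the log2 scale, and 135 called probe sets, 67 higher and 68 lower, changed by 2-fold or more. In a bulk seedling sample, fewer cells of a type and less RNA per cell cannot be told apart. The number of calls differed with the arrays in the fit. It was 628 without the third IAA array and 636 when the 6 arrays were fitted alone. Leaving out mock replicate 1, 2 or 3 gave 172, 113 and 139 calls, and leaving out PEO-IAA+IAA replicate 1 or 3 gave 161 and 122. Each fit that left out an array of the comparison kept the third IAA array in the shared spread, here and for the genes below. With only the third IAA array left out, all 41 called genes named here kept their call.

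Named genes were counted through their probe set with the highest mean. Among 8612 genes tested, 121 (1.41%) were called, 56 of them higher (0.65%) and 65 lower (0.755%) with PEO-IAA plus IAA than in mock. The median log2 fold change of all these genes was -0.00. Many of the called genes carry only a locus code in the gene table used for names, and no role is given for those here.

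The early auxin-induced genes stood above mock although the antagonist was present. Of 8 tested members of this list, 5 were called higher and none lower, against 0.65% of all genes called higher. The median log2 fold change of the 8 was 1.59, with a range of 0.47 to 5.19. The list was drawn up with earlier results of these data known.

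GH3.3, an enzyme that joins IAA to amino acids and so removes free auxin, had the highest fold change of all named genes. Its signals were 10349.9, 10679 and 12902 on the 3 arrays with PEO-IAA plus IAA, against 194, 313 and 443 on the mock arrays. The groups lay far apart, and the log2 fold change was 5.19 ± 0.30 (adjusted p = 2.36e-07). GH3.3 did not differ significantly from the level under IAA alone, where signals were 12714, 15254 and 13866 (log2 difference -0.30 ± 0.30, adjusted p = 0.599; without the third IAA array -0.57, adjusted p = 0.372). Its signals under PEO-IAA alone were 34.5, 59.5 and 100.3, each below every mock array. The combined treatment lay above that level by 7.39 ± 0.30 on the log2 scale (adjusted p = 1.13e-09).

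LBD29, a transcription factor of lateral root initiation, had signals of 439.7, 198 and 283 with PEO-IAA plus IAA, against 22, 24.7 and 50.4 in mock. The change was 2.97 ± 0.47 on the log2 scale (adjusted p = 0.0027), with no overlap between the groups. IAA29, one of the Aux/IAA repressors that auxin itself induces, had signals of 302, 207 and 232 with the combined treatment, against 39.5, 63.4 and 45.4 in mock, a log2 change of 2.16 ± 0.25 (adjusted p = 0.000167). Seedlings with IAA alone showed 476, 519 and 586 for IAA29, all above the arrays with the combined treatment. That difference from IAA alone, -1.08 ± 0.25 on the log2 scale, missed the threshold (adjusted p = 0.0535; without the third IAA array -1.05, adjusted p = 0.0608).

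HAT2, an auxin-induced homeodomain-leucine zipper transcription factor, was among the most even of the induced genes. It gave 905, 891 and 840.5 on the arrays with PEO-IAA plus IAA, against 255, 291 and 234 on the mock arrays. The log2 change was 1.73 ± 0.16 (adjusted p = 2.82e-05). IAA alone gave 1227, 1502 and 1476, above all 3 arrays with the combined treatment, though the log2 difference of -0.66 ± 0.16 had an adjusted p of 0.0607 (-0.65 and 0.0552 without the third IAA array). With PEO-IAA alone HAT2 stood at 142, 196 and 169, and the combined treatment was higher by 2.34 ± 0.16 (adjusted p = 3.04e-07).

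GH3.5 (WES1), which like GH3.3 conjugates auxin, had signals of 1488, 1089.9 and 947 with PEO-IAA plus IAA, against 429, 389.7 and 442 in mock. The log2 change of 1.44 ± 0.30 was called (adjusted p = 0.0169), but the call was lost in 5 of the 6 fits that each left out an array of the comparison, all except the one without PEO-IAA+IAA replicate 3 (log2 fold change 1.19 to 1.50, adjusted p 0.0563 to 0.136). These fits kept the third IAA array, and the call held when only that array was left out (adjusted p = 0.000771). The GH3.5 level under IAA alone was 2944, 3192 and 1665. The log2 difference from IAA alone, -1.11 ± 0.30, was not called with all arrays (adjusted p = 0.0906) and was called, as lower, without the third IAA array (-1.50, adjusted p = 0.00583).

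The other members of the early auxin-induced list were not called, although their estimates were all above 0. LBD16, a further lateral root factor, had signals of 185, 94.3 and 135 with PEO-IAA plus IAA, against 103, 71.1 and 72.2 in mock (log2 fold change 0.67 ± 0.25, adjusted p = 0.317). GH3.1 had 61.8, 34 and 64.7 with the combined treatment and 27.7, 26.3 and 22.7 in mock (0.84 ± 0.34, adjusted p = 0.444). IAA30 had 74, 69.1 and 88.7, against 60.6, 38.4 and 64.1 in mock (0.47 ± 0.22, adjusted p = 0.597). GH3.1 was the member of this list called lower than under IAA alone with all arrays, where its signals were 291, 238 and 137 (-1.89 ± 0.34, adjusted p = 0.0166; without the third IAA array -2.13, adjusted p = 0.006). Without the third IAA array IAA30 was called lower too (-1.19, adjusted p = 0.0111). Against PEO-IAA alone, 7 of the 8 members were called higher, a call that 0.816% of all tested probe sets had. IAA30 was the exception at 0.82 ± 0.22 (adjusted p = 0.0891).

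**Figure D1:**
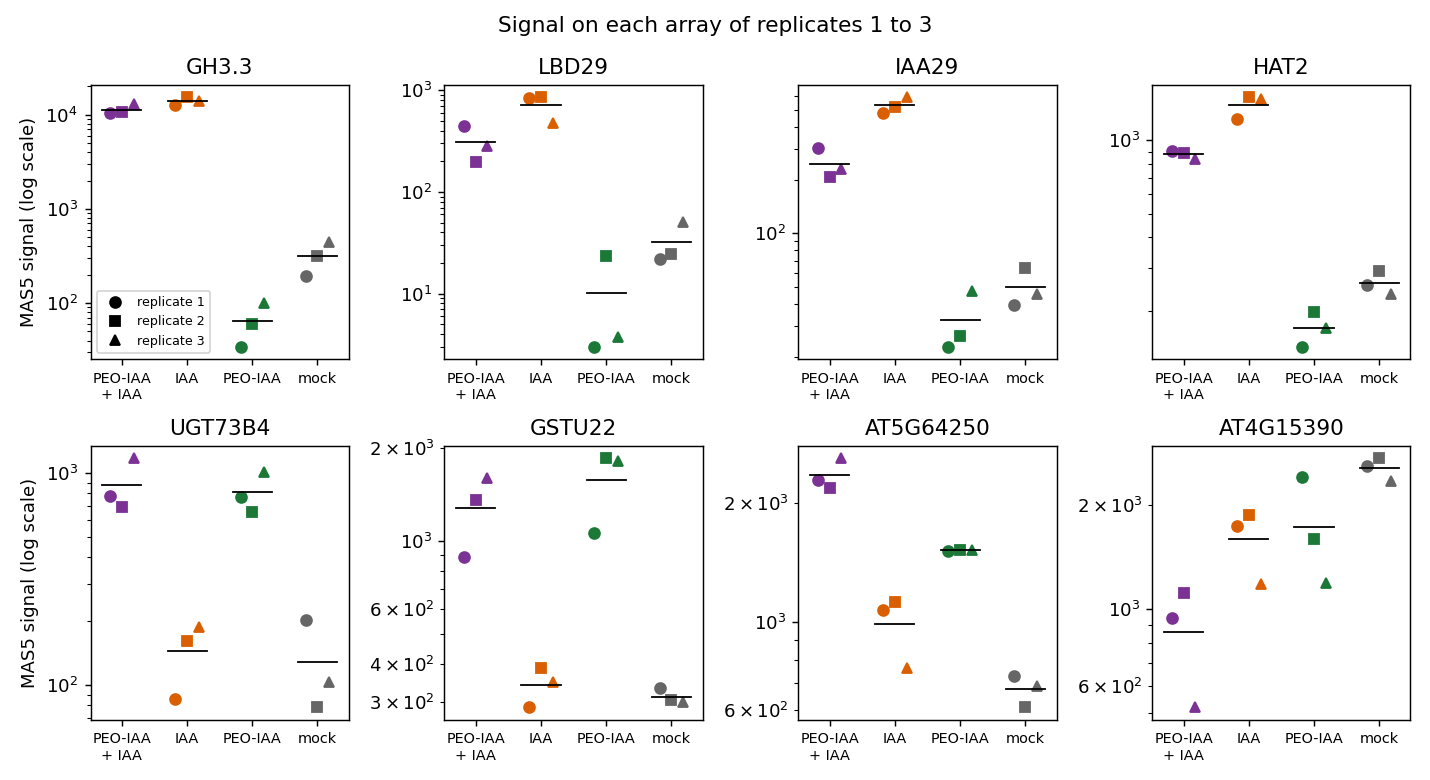
MAS5 signal on a log axis for 8 genes called between PEO-IAA plus IAA and mock, with 1 point per array, shapes for replicates 1 to 3, and a line at each group's mean (n = 3). GH3.3, LBD29, IAA29 and HAT2 stood above mock with the combined treatment and with IAA alone but not with PEO-IAA alone, UGT73B4 and GSTU22 stood above mock with the combined treatment and with PEO-IAA alone, and AT5G64250 (higher) and AT4G15390 (lower) moved farther from mock with both compounds than with either.

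Conjugation and oxidation remove auxin from the cell, and 8 genes of that group were tested. GH3.3 and GH3.5 were called higher than mock and none was called lower, against 0.65% and 0.755% of all genes, and the median log2 fold change was 0.46. GH3.17, which conjugates IAA to glutamate, had signals of 240.2, 370.0 and 311 with PEO-IAA plus IAA, against 297, 428 and 438 in mock (-0.33 ± 0.26, adjusted p = 0.986). UGT74D1, a glucosyltransferase with activity towards auxins, had 1914, 2088 and 2154, against 1790.3, 1762 and 1802 in mock (0.20 ± 0.18, adjusted p = 1). The listed locus AT1G14130 had 262, 361 and 499 with the combined treatment, against 186, 219 and 251 in mock. Its groups did not overlap, and its log2 fold change of 0.72 ± 0.18 missed the threshold (adjusted p = 0.0595) but passed it without PEO-IAA+IAA replicate 1 (0.92, adjusted p = 0.0225) and without the third IAA array (0.72, adjusted p = 0.00564). The locus beside it in the list, AT1G14120, had a log2 fold change of -0.45 ± 0.34 (adjusted p = 0.971). Against IAA alone, GH3.17 was at -0.83 ± 0.26 (adjusted p = 0.146) and was called lower without the third IAA array (-1.31, adjusted p = 0.00017). AT1G14120 went the other way, at 0.42 ± 0.34 (adjusted p = 0.51), and was called higher without that array (1.04, adjusted p = 0.0176).

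Of 3 tested Aux/IAA genes, IAA29 was called higher and IAA18 and IAA30 were not called, against 0.65% of all genes called higher. IAA18 had 699, 646 and 723 with PEO-IAA plus IAA, against 629, 543 and 567 in mock (0.25 ± 0.20, adjusted p = 0.992).

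Glycosyltransferases and glutathione transferases join sugars or glutathione to foreign or toxic compounds. UGT73B4, a UDP-dependent glycosyltransferase, had signals of 781, 687 and 1174 with PEO-IAA plus IAA, against 202, 78.4 and 103 in mock. The log2 fold change was 2.78 ± 0.30 (adjusted p = 0.000104). Under IAA alone UGT73B4 stood at 85.7, 162 and 187, within the mock range, and the combined treatment was higher by 2.57 ± 0.30 (adjusted p = 0.000391; without the third IAA array 2.72, adjusted p = 0.00016). Under PEO-IAA alone its signals were 771, 653 and 1009, and the difference from the combined treatment was 0.10 ± 0.30 (adjusted p = 1). UGT73B5, of the same subfamily, had 301, 289.8 and 430.0, against 160.4, 119 and 107 in mock (1.35 ± 0.22, adjusted p = 0.00354).

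Over the whole glycosyltransferase list, 3 of 37 tested genes were called higher and none lower, against 0.65% and 0.755% of all genes, with a median log2 fold change of 0.10 and a range of -1.26 to 2.78. The third call was UGT87A2, with 2527, 2239 and 2689 on the arrays with PEO-IAA plus IAA, against 1947, 1438 and 1580.2 in mock (0.59 ± 0.11, adjusted p = 0.00801). The UGT87A2 call was lost without mock replicate 2, mock replicate 3 or PEO-IAA+IAA replicate 3 (0.54 to 0.58, adjusted p 0.0571 to 0.0703), and without the replicate block (0.59, adjusted p = 0.0564).

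The tau-class glutathione transferases, enzymes that attach glutathione to toxic compounds, went both ways. Of 9 tested, 2 were called higher and 2 lower, against 0.65% and 0.755% of all genes, with a median log2 fold change of -0.15. GSTU22 had signals of 887, 1355 and 1595 with PEO-IAA plus IAA, against 334, 305 and 300.4 in mock, a log2 change of 1.96 ± 0.20 (adjusted p = 6.61e-05). IAA alone left GSTU22 at 289, 387 and 349, and the combined treatment was higher by 1.85 ± 0.20 (adjusted p = 0.00024; without the third IAA array 1.76, adjusted p = 0.000183). PEO-IAA alone gave 1062, 1853 and 1811, from which the combined treatment did not differ significantly (-0.30 ± 0.20, adjusted p = 0.913).

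GSTU25 was higher by 2.50 ± 0.48 (adjusted p = 0.0111), but its arrays were uneven. They read 1072, 1061 and 3272 with PEO-IAA plus IAA, against 623, 175 and 173 in mock. The call was lost without mock replicate 2, mock replicate 3 or PEO-IAA+IAA replicate 3 (1.98 to 2.37, adjusted p 0.0785 to 0.0958).

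The tau-class genes below mock were GSTU28 and GSTU26. GSTU28 had 62.6, 102 and 41.3 with PEO-IAA plus IAA, against 212, 265 and 182 in mock (-1.64 ± 0.33, adjusted p = 0.0146). GSTU26 had 104, 180.2 and 166, against 269, 411 and 243 in mock (-1.00 ± 0.21, adjusted p = 0.0179). Its arrays did not overlap between the groups, nor did those of GSTU28. The GSTU28 call was lost in 5 of the 6 fits that left out an array, all except the one without PEO-IAA+IAA replicate 2 (-1.71 to -1.38, adjusted p 0.0579 to 0.12). The GSTU26 call was lost without mock replicate 2 or PEO-IAA+IAA replicate 1 (-0.80 and -0.73, adjusted p 0.169 and 0.133). Among uncalled tau-class members, GSTU16 stood at 733, 774 and 902, against 485, 569.6 and 656 in mock (0.49 ± 0.14, adjusted p = 0.124; without the third IAA array adjusted p = 0.0426). GSTU18 and GSTU23 were at -0.18 ± 0.13 and -0.29 ± 0.17.

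ATGSTF13, a phi-class glutathione transferase, was lower with PEO-IAA plus IAA, at 83.5, 131 and 84.9, against 144, 218 and 180.2 in mock (-0.82 ± 0.19, adjusted p = 0.0407). It was the single call among 3 other glutathione transferases tested, against 0.755% of all genes called lower. The call was lost in 5 of the 6 fits that left out an array, all except the one without PEO-IAA+IAA replicate 2 (-0.87 to -0.68, adjusted p 0.107 to 0.29), and also without the replicate block (adjusted p = 0.0838). The list of other glutathione transferases was widened to hold this gene after its values had been seen, so the count is not a result about the list. In the list of further detoxification genes, which holds alkenal reductases and efflux transporters, none of 4 was called. Its member AT2G04050 had 155, 336 and 582, against 126, 127 and 132 in mock (1.24 ± 0.42, adjusted p = 0.241), and the alkenal reductase AER had 1469, 1594 and 2351, against 1559.9, 1346 and 1453 (0.28 ± 0.17, adjusted p = 0.847). None of 13 tested cytochrome P450 genes was called either, with log2 fold changes of -0.55 to 0.12.

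AT2G41730 and AT5G14730, which carry no name in the gene table, also stood above mock. AT5G14730 had 562, 668 and 954 with PEO-IAA plus IAA, against 231, 160.5 and 231 in mock (1.76 ± 0.22, adjusted p = 0.000458). AT2G41730 had 1101, 1024 and 2104, against 603, 183 and 211 in mock (2.19 ± 0.43, adjusted p = 0.0129), and 4 of the 6 fits that left out an array lost its call, those without mock replicate 2 or 3 or without PEO-IAA+IAA replicate 2 or 3 (1.72 to 2.13, adjusted p 0.0681 to 0.105). Both genes were at a similar level with PEO-IAA alone, from which the combined treatment differed by -0.13 ± 0.22 and -0.34 ± 0.43 (adjusted p = 1 for each). LTI30, a dehydrin known from cold and drought, rose to 2287, 1785 and 2474, against 972, 735 and 776 in mock (1.39 ± 0.25, adjusted p = 0.00791). LTI30 lost its call without mock replicate 2 or PEO-IAA+IAA replicate 3 (1.36 and 1.25, adjusted p 0.0536 and 0.0697).

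AT5G62280 and AT1G62770 were the remaining genes of the 12 that the naming rule takes as highest, among genes whose arrays did not overlap and whose higher group mean was above the median of tested probe sets. AT5G62280 had 1069, 1016 and 904 with PEO-IAA plus IAA, against 225, 233 and 198 in mock, a log2 change of 2.15 ± 0.27 (adjusted p = 0.000458). AT1G62770 had 417, 392 and 368, against 120.1, 158 and 183 in mock (1.33 ± 0.22, adjusted p = 0.00353). Either gene was higher than with PEO-IAA alone, by 2.72 ± 0.27 and 1.66 ± 0.22 (adjusted p = 2.8e-05 and 0.000429). Against IAA alone they were at -0.29 ± 0.27 and -0.65 ± 0.22 (adjusted p = 0.572 and 0.166). Without the third IAA array AT1G62770 was called lower than IAA alone (-0.88, adjusted p = 0.0337) and AT5G62280 was not (-0.69, adjusted p = 0.118).

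**Figure D2:**
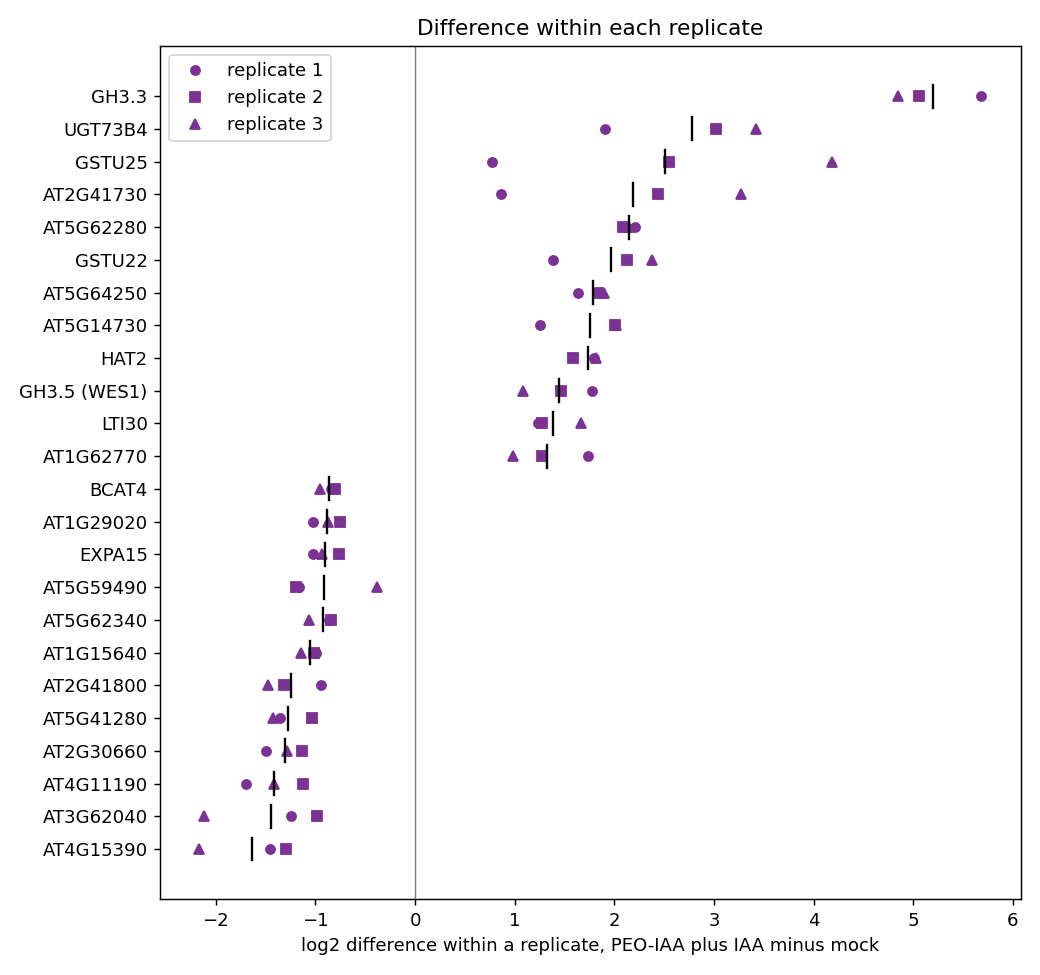
Log2 difference between PEO-IAA plus IAA and mock within each replicate number for the 12 most raised and the 12 most lowered genes under the naming rule, with a bar at the fitted value. The rule takes only genes whose arrays do not overlap, which by itself puts all 3 pairs of a gene on the same side of 0. The pairs of GSTU25 and AT2G41730 were the most spread.

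Expansins loosen the cell wall during growth, and of 14 tested 1 was higher, 1 was lower and 12 were not called, against 0.65% of all genes higher and 0.755% lower. The median log2 fold change was -0.04, with a range of -0.91 to 1.10. EXPA15 had signals of 595, 732 and 543 with PEO-IAA plus IAA, against 1217, 1245 and 1047 in mock, and fell by 0.91 ± 0.13 on the log2 scale (adjusted p = 0.000936). EXPA8 had 445, 427 and 273, against 213, 157 and 147 in mock (1.10 ± 0.22, adjusted p = 0.0165). The groups did not overlap for either gene, which the naming rule required of EXPA15 but not of EXPA8. The EXPA8 call was lost without mock replicate 2 or 3 or PEO-IAA+IAA replicate 1 or 2 (0.99 to 1.07, adjusted p 0.0866 to 0.133). None of 7 tested xyloglucan endotransglucosylase/hydrolase genes, which cut and rejoin wall polymers, was called (-0.51 to 0.15).

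The root hair list held 5 tested genes, and none was called against mock. All 5 estimates were below 0, from -1.55 to -0.34, with a median of -0.47. EXPA7, an expansin of root hair cells, had 131, 127 and 51.2 with PEO-IAA plus IAA, against 138, 145 and 94.8 in mock (-0.35 ± 0.35, adjusted p = 1). EXPA18, also of root hair cells, had 261, 190.3 and 122, against 297, 292 and 224 (-0.54 ± 0.21, adjusted p = 0.368). The groups overlapped for both genes. GH9C1, an endoglucanase, was at -0.47 ± 0.27 (adjusted p = 0.788), and AT1G30870 at -0.34 ± 0.22 (adjusted p = 0.863). AT3G49960 was uneven, with 211, 98.9 and 6.48 against 210.0, 255 and 136 in mock. Its log2 fold change of -1.55 ± 0.52 was not called (adjusted p = 0.226), and it was called without PEO-IAA+IAA replicate 1 (-2.33, adjusted p = 0.0212).

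Against PEO-IAA alone, all 5 root hair genes were called higher in the combined treatment, by 1.17 to 2.48 on the log2 scale, a call that 0.816% of all tested probe sets had. The list was drawn up with earlier results of these data known. Its median log2 fold change with PEO-IAA alone over mock was -2.11. A list that is low on the PEO-IAA arrays favours such calls, so the count is not a result about the list. With PEO-IAA alone EXPA7 had signals of 47, 30.6 and 5.89, and the combined treatment stood above that by 1.76 ± 0.35 (adjusted p = 0.0145). A signal as low as 5.89 is among the least certain, since detection calls were not used. EXPA18 stood at 93.5, 85.9 and 56.3 with PEO-IAA alone, with a difference of 1.17 ± 0.21 (adjusted p = 0.00522). The rise over PEO-IAA alone was 1.44 ± 0.27 for GH9C1 (adjusted p = 0.00898), 1.89 ± 0.22 for AT1G30870 (adjusted p = 0.000114) and 2.48 ± 0.52 for AT3G49960 (adjusted p = 0.0175). EXPA7 and EXPA18 are also members of the expansin list.

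Markers of other tissues and reference genes showed no call between PEO-IAA plus IAA and mock. The 7 tested photosynthesis genes had log2 fold changes of -0.34 to 0.15, and 3 other root genes of -0.19 to 0.05. Of the reference genes, AT4G34270 had 509, 605 and 462 with the combined treatment, against 562, 539 and 563 in mock (-0.09 ± 0.16, adjusted p = 1), and AT2G28390 had 463, 557 and 448, against 454, 547 and 502 (-0.04 ± 0.13, adjusted p = 1). The sign of AT2G28390 turned without mock replicate 3 (0.01). In the flavonoid list, DFR, which encodes dihydroflavonol reductase, was the 1 member tested, at -0.62 ± 0.23 (adjusted p = 0.308).

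Of the 65 genes below mock, most of those named by the rule carry a locus code only. AT4G15390 had the largest fall among the 12 lowest genes that the rule takes by fold change, with 942, 1113 and 520.2 on the arrays with PEO-IAA plus IAA, against 2589, 2736 and 2357 on the mock arrays (-1.64 ± 0.19, adjusted p = 0.000196). AT5G60520, which entered through its shared call with PPBo plus IAA, had 52.2, 89.3 and 64.1, against 383, 352 and 243 in mock. Its log2 fold change was -2.14 ± 0.17 (adjusted p = 8.21e-06), and the groups lay far apart. With IAA alone AT5G60520 stood at 72.4, 58.1 and 63, and with PEO-IAA alone at 379, 465 and 301.

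AT2G41800 had 330.3, 224 and 164 with PEO-IAA plus IAA, against 644, 567 and 471 in mock (-1.25 ± 0.13, adjusted p = 9.42e-05). AT5G41280 stood at 595, 467 and 332, against 1536, 962 and 906 in mock (-1.27 ± 0.16, adjusted p = 0.000512). AT2G30660 had 218, 251 and 182, against 630.1, 559 and 456 (-1.31 ± 0.19, adjusted p = 0.00178). In each of these genes every array with the combined treatment was below every mock array. AT3G62040, AT4G11190 and AT1G15640 fell by 1.45 ± 0.25, 1.41 ± 0.27 and 1.05 ± 0.17 on the log2 scale (adjusted p = 0.0058, 0.0121 and 0.00343).

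BCAT4, an aminotransferase of the pathway that makes glucosinolates from methionine, had 2011, 1565 and 1508 with PEO-IAA plus IAA, against 3603, 2732 and 2919 in mock. The log2 fold change was -0.86 ± 0.14 (adjusted p = 0.00351), and the arrays did not overlap, as the naming rule requires. IAA alone gave 1237, 1459 and 1116, and the combined treatment was higher by 0.41 ± 0.14, which was not called (adjusted p = 0.171; without the third IAA array 0.41, adjusted p = 0.161). The BCAT4 signals under PEO-IAA alone were 4324, 2563 and 2694, and the combined treatment was lower (log2 difference -0.88 ± 0.14, adjusted p = 0.00245).

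AT5G62340, AT5G59490 and AT1G29020 were also among the 12 that the rule takes as lowest under the same conditions on overlap and signal, at -0.93 ± 0.21, -0.91 ± 0.20 and -0.89 ± 0.16 (adjusted p = 0.0302, 0.0304 and 0.00913). Some calls in this set were lost with fewer arrays. AT5G62340 lost its call in all 6 fits that left out an array (-1.00 to -0.83, adjusted p 0.0685 to 0.197) and without the replicate block (adjusted p = 0.114). AT5G59490 lost it in 5, all except the one without PEO-IAA+IAA replicate 3 (-1.03 to -0.76, adjusted p 0.0579 to 0.201). AT4G11190 was not called without mock replicate 1 or 2 or PEO-IAA+IAA replicate 1 or 3 (-1.40 to -1.30, adjusted p 0.0703 to 0.0918), nor without the replicate block (adjusted p = 0.12). AT1G29020 was not called without mock replicate 1 or PEO-IAA+IAA replicate 3 (-0.79 and -0.84, adjusted p 0.0688 and 0.0673).

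The called genes were then set against each compound alone, in the same fit. These contrasts share the PEO-IAA+IAA arrays with the main one, so they are given as values side by side. Of the 56 genes above mock, 20 were higher than with PEO-IAA alone and none was lower, while 14 were higher than with IAA alone and none was lower. Of all tested probe sets, 0.816% were called higher than with PEO-IAA alone and 0.509% higher than with IAA alone. Neither difference was called for 24 of the 56. Of the 65 genes below mock, 34 were lower than with PEO-IAA alone, against 0.911% of all tested probe sets, 2 were lower and 3 higher than with IAA alone, and 29 differed from neither. These shares belong to the fit with all arrays, and the counts changed without the third IAA array. Over all tested probe sets, calls against IAA alone rose from 122 to 398 and calls against PEO-IAA alone from 275 to 552. In that fit 16 of the 56 were higher and 4 lower than with IAA alone. Of the same genes, 24 were higher than with PEO-IAA alone, and 18 differed from neither. Among the 65, 41 were then lower than with PEO-IAA alone, and 3 were lower and 4 higher than with IAA alone. Since calls over all tested probe sets rose too, the higher counts are not read as a result about these genes.

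**Figure D3:**
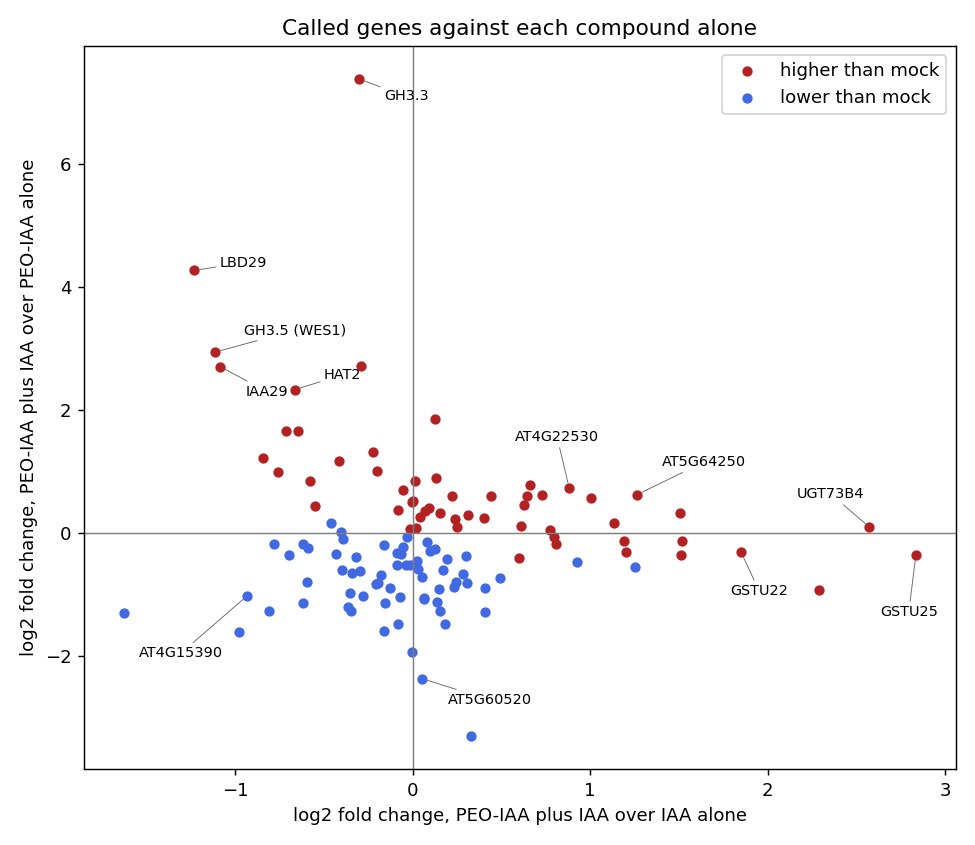
Log2 difference between PEO-IAA plus IAA and IAA alone (horizontal) and between PEO-IAA plus IAA and PEO-IAA alone (vertical) for the 121 called genes, in red where higher and in blue where lower than mock. GH3.3 lay at -0.30 and 7.39, UGT73B4 at 2.57 and 0.10, and AT5G64250 and AT4G15390 lay away from 0 on both axes; the axes share the PEO-IAA+IAA arrays, and the horizontal axis includes the third IAA array.

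AT5G64250, AT4G22530 and AT4G15390 differed from mock and from both single treatments in the same direction. They were picked out for this after their values had been seen, and AT4G22530 lies outside the naming rule. AT5G64250 had 2276, 2182 and 2589 with PEO-IAA plus IAA, 1071, 1121 and 764 with IAA alone, 1511, 1517 and 1516 with PEO-IAA alone, and 729, 608 and 689 in mock. All 3 arrays with the combined treatment were above the other 9. The log2 fold change over mock was 1.79 ± 0.14 (adjusted p = 8.21e-06), over IAA alone 1.26 ± 0.14 (adjusted p = 0.000315; without the third IAA array 1.06, adjusted p = 6.73e-05) and over PEO-IAA alone 0.63 ± 0.14 (adjusted p = 0.0306).

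AT4G22530 had 852, 702 and 796 with the combined treatment, 584, 447 and 284 with IAA alone, 484, 424 and 495 with PEO-IAA alone, and 485, 286 and 337 in mock. It was higher than mock by 1.10 ± 0.17 (adjusted p = 0.00265), than IAA alone by 0.88 ± 0.17 (adjusted p = 0.0237; without the third IAA array 0.63, adjusted p = 0.024) and than PEO-IAA alone by 0.73 ± 0.17 (adjusted p = 0.0358). AT4G15390, below mock, had 1737, 1875 and 1182 with IAA alone and 2410.0, 1592 and 1192 with PEO-IAA alone. The combined treatment was lower than IAA alone (log2 difference -0.93 ± 0.19, adjusted p = 0.0324; without the third IAA array -0.98, adjusted p = 0.0155) and lower than PEO-IAA alone (-1.02 ± 0.19, adjusted p = 0.00806).

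The listed loci AT4G30450 and AT4G30460 showed single treatments of opposite sign and a combined level between them. AT4G30450 had 591, 667 and 475 with PEO-IAA plus IAA, against 854, 798 and 877 in mock, while IAA alone gave 271, 295 and 367 and PEO-IAA alone 1387, 1338 and 1188. Its difference from mock, -0.55 ± 0.14, was not called (adjusted p = 0.0733) but passed without PEO-IAA+IAA replicate 2 (-0.68, adjusted p = 0.0449) and without the third IAA array (-0.55, adjusted p = 0.00481). AT4G30460 had 256, 315 and 297, against 314, 282 and 326 in mock, with 129.7, 109 and 85.4 under IAA alone and 655, 524 and 581 under PEO-IAA alone. It lay at -0.09 ± 0.14 against mock (adjusted p = 1), an estimate that turned to 0.06 without PEO-IAA+IAA replicate 1. The combined treatment was called higher than IAA alone for both loci, by 0.88 ± 0.14 and 1.37 ± 0.14 (adjusted p = 0.00822 and 0.00022; without the third IAA array 1.06 and 1.20, adjusted p = 0.000142 and 6.73e-05). It was called lower than PEO-IAA alone for both, with log2 differences of -1.17 ± 0.14 and -1.00 ± 0.14 (adjusted p = 0.000225 and 0.0008).

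By gene order in the TAIR10.1 gene table, 5 pairs of called genes were direct neighbours, and 4 of the pairs moved the same way. They were looked up after the values had been seen. The pairs above mock were UGT73B5 with UGT73B4, and AT4G37290 with AT4G37295. AT4G37290 had 234, 280.0 and 357 with PEO-IAA plus IAA, against 31.9, 23.4 and 48.9 in mock (2.84 ± 0.31, adjusted p = 0.000143), and AT4G37295 had 511, 256 and 370.2, against 134, 150.3 and 119.7 (1.39 ± 0.25, adjusted p = 0.0064). The AT4G37295 call was lost without mock replicate 3 or PEO-IAA+IAA replicate 1 (1.26 and 1.22, adjusted p 0.0562 and 0.0561). Probes of close relatives can bind each other's transcripts, which was not tested here.

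The pairs below mock were AT5G60520 with AT5G60530, and AT5G62330 with AT5G62340. AT5G60530 had 196, 174 and 115 with PEO-IAA plus IAA, against 342, 309.5 and 253 in mock (-0.89 ± 0.18, adjusted p = 0.0153), and 5 of the 6 fits that left out an array lost its call, all except the one without mock replicate 1 (-0.96 to -0.75, adjusted p 0.0518 to 0.126), as did the fit without the replicate block (adjusted p = 0.287). AT5G62330 had 40.5, 154 and 63.5, against 354, 333 and 328 (-2.07 ± 0.30, adjusted p = 0.00137). GSTU25 and GSTU26 were the neighbours that moved in opposite directions, at 2.50 and -1.00.

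The calls were looked up on the arrays of replicates 4 and 5, which share none with the comparison, although the same fit gave the spread for both. PPBo plus IAA, set against its own mock, had 216 calls (1.36%), 81 higher (0.509%) and 135 lower (0.848%). Of the 122 probe sets higher with PEO-IAA plus IAA, 110 (90.2%) were also above mock with PPBo plus IAA, as were 53.5% of all tested probe sets. Of the 140 lower ones, 126 (90%) were below mock, as were 46.5% of all. Calls in the same direction numbered 29 among the higher ones, 23.8% of one list and 35.8% of the other. They numbered 49 among the lower ones, 35% of one list and 36.3% of the other. A single probe set, the unnamed 260783_at, was called in opposite directions, at -0.78 ± 0.17 with PEO-IAA plus IAA and at 1.08 ± 0.21 with PPBo plus IAA (adjusted p = 0.0256 and 0.0136), and it is named here after its values were seen.

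With 100 nM IAA alone, given on arrays of replicates 4 and 5, 100 of the 122 higher probe sets (82.0%) were above mock, as were 54.4% of all tested, and 134 of the 140 lower ones (95.7%) were below mock, as were 45.6% of all. There, 19 and 24 were called in the same direction and none in the opposite direction, out of 34 (0.214%) and 41 (0.258%) calls.

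GH3.3 led the genes called in both combined treatments. On the arrays of replicates 4 and 5 its signals were 9332 and 7248 with PPBo plus IAA, against 384.7 and 473.6 in mock (4.24 ± 0.37, adjusted p = 2.05e-05). LBD29 had 448.7 and 414.4, against 30.6 and 38.5 (3.39 ± 0.57, adjusted p = 0.00462), and GH3.5 had 2040.5 and 2391, against 475 and 407 (2.31 ± 0.36, adjusted p = 0.00251). AT1G62770, UGT73B5 and AT5G64250 were also called higher with PPBo plus IAA, at 2.10 ± 0.27, 1.16 ± 0.27 and 0.77 ± 0.17 (adjusted p = 0.00051, 0.0452 and 0.0367). Apart from GH3.3, the genes that the naming rule takes for calls in both treatments were below mock. AT2G30660 was at -2.34 ± 0.24 with PPBo plus IAA, AT5G41280 at -2.08 ± 0.20, AT1G30990 at -2.00 ± 0.20, AT5G60520 at -1.53 ± 0.21, AT3G23190 at -1.49 ± 0.16, AT3G62280 at -1.20 ± 0.16 and EXPA15 at -1.02 ± 0.15. Under PEO-IAA plus IAA, AT1G30990 had 125, 153 and 142, against 299, 369 and 261 in mock (-1.10 ± 0.17, adjusted p = 0.00206). AT3G62280 had 157, 153 and 102, against 314, 308 and 272 (-1.10 ± 0.13, adjusted p = 0.000308), and AT3G23190 had 1029, 1072 and 867, against 2324, 1581 and 1409 (-0.81 ± 0.13, adjusted p = 0.00307).

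The responses to both combined treatments differed significantly in 6 of 15922 probe sets (0.0377%), 4 with the higher value under PEO-IAA plus IAA (0.0251%) and 2 with the lower (0.0126%). None of the 6 has a gene name here. With the third IAA array left out the number was 85. Among the 6, 260904_at was at 0.45 with PEO-IAA plus IAA and -3.07 with PPBo plus IAA, a difference of 3.52 ± 0.36 (adjusted p = 0.000364), and 245035_at was at 0.55 and -2.78, a difference of 3.33 ± 0.32 (adjusted p = 0.000297). For HAT2 the difference of 1.35 missed the threshold (adjusted p = 0.0641) and passed it without the third IAA array (adjusted p = 0.0144). HAT2 stood at 451 and 525 with PPBo plus IAA, against 376 and 367 in mock (0.38 ± 0.19, adjusted p = 0.732). IAA29 had 70.8 and 68.0 with PPBo plus IAA, against 46.4 and 45.5 in its mock (0.53 ± 0.30, adjusted p = 0.897), and its response did not differ significantly from that to PEO-IAA plus IAA (adjusted p = 0.223; without the third IAA array 0.0749). For UGT73B4, which had 187 and 166, against 81.9 and 73.3 in mock, the adjusted p of the difference was 0.409 (0.132 without the third IAA array). The difference for GSTU22 had an adjusted p of 0.211 with all arrays and 0.0452 without the third IAA array, its signals with PPBo plus IAA being 356 and 361, against 224 and 241 in mock. AT5G64250, called higher in both combined treatments, had a difference of 1.01 ± 0.22 (adjusted p = 0.171; without the third IAA array 0.00539). AT5G14730, AT1G29020, AT5G62280 and AT2G41800 also passed only without that array (adjusted p = 0.0155, 0.0161, 0.0445 and 0.0481). A missed threshold does not show that the responses were alike, since replicates 4 and 5 give 2 arrays a group.

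**Figure D4:**
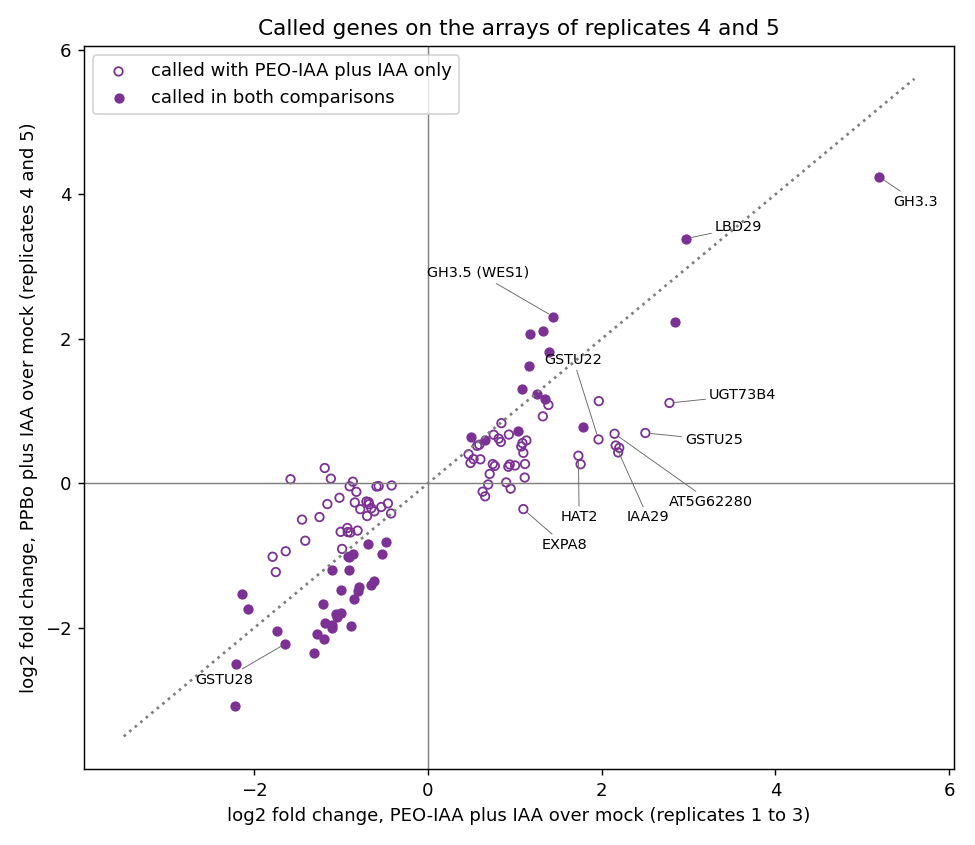
Log2 fold change of the 121 called genes with PEO-IAA plus IAA over mock (horizontal, replicates 1 to 3) and with PPBo plus IAA over mock (vertical, replicates 4 and 5), filled where called in both comparisons, with a dotted line at equal values. GH3.3 and LBD29 were high on both axes, and EXPA8 had opposite signs. GH3.3, UGT73B4, HAT2, IAA29, GSTU22 and GSTU25 were among the genes below the dotted line. None of these genes was called in the test of the difference with all arrays. All genes shown were chosen by their call on the horizontal axis, which favours larger changes there.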

How the data were processed

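Signals for probe sets were deposited on a linear intensity scale and were made with MAS5, per the submitters' processing notes, which give no version. RNA was labelled with an Affymetrix one-cycle kit, per the labels' protocols, and of 22810 probe sets on the ATH1 array 64 controls were set aside. The 2% trimmed mean of the deposited intensity was 500.04 to 500.05 on every array, so no further scaling was applied. Signals were taken to log2(signal + 7.56), the 10th percentile of all values, and tests covered the 15922 probe sets with a mean signal over the 30th percentile (61.8).

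A single model of all 23 arrays was fitted in limma (3.58.1, under R 4.3.3), with 9 group means and the replicate number as a block (11 residual degrees of freedom); eBayes used a trended prior. Benjamini-Hochberg adjustment was made separately for each of 8 contrasts. Deviations from the group means of same-numbered PEO-IAA+IAA and mock arrays correlated at 0.635, 0.571 and 0.491 over probe sets, against -0.480 to 0.0326 for other pairs, so the numbers were taken to pair the samples. Deviations within a group cancel out, so the negative values of other pairs follow in part from the positive ones. The fit was tested on simulated data, and 18 alternative settings were run.

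Names came from the platform annotation updated to the TAIR10.1 gene table: 13513 probe sets had 1 gene, 503 several and 8794 none here, and 13436 matched the table. No sequence or coordinate is given. Of 1147 loci in 32 lists, 126 were tested, and 9 lists had no tested gene (auxin receptors and response factors, SAUR genes, ABC transporters, shoot meristem, ethylene, brassinosteroid and gibberellin, jasmonate, touch and calcium, cell cycle). The comparison, the lists and the main fit were chosen with earlier results of these data known. Of the lists, the cytochrome P450 pattern was narrowed and a heat shock list dropped before fold changes were seen here. The class III peroxidase list was enlarged and set back, and the list of other glutathione transferases was widened, after they were seen.

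Named were the 12 highest and the 12 lowest called genes by log2 fold change among those with arrays that did not overlap and the higher group's mean above the median, up to 4 called members of each list, members of lists with 12 or fewer tested genes, and up to 8 genes called the same way with PPBo plus IAA. Which uncalled list members were named was decided after their values were seen; those left unnamed include members near 0 whose sign turned in some settings.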

Additional observations from a re-analysis of the deposited data

Results flagged for a closer look

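The responses to PEO-IAA plus IAA and to PPBo plus IAA differed in 6 probe sets in the test of the difference itself, and none of the 6 is named here. The largest difference was that of 260904_at, at 3.52 ± 0.36 on the log2 scale.

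EXPA8 moved in opposite directions on every pair of arrays of these treatments. It was above mock in all 3 pairs with PEO-IAA plus IAA (1.10 ± 0.22) and below mock in both pairs with PPBo plus IAA, at 231 and 273, against 312 and 335 in mock (log2 fold change -0.35 ± 0.28, adjusted p = 1). The adjusted p of that difference was 0.252, and 0.0595 without the third IAA array.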

How the results depend on the processing

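The count of 262 calls between PEO-IAA plus IAA and mock became 181 with no replicate block, 628 without the third IAA array (262 shared with the main calls), 636 with the arrays of the contrast alone (247 shared), 1108 with array quality weights (262 shared) and 134 with replicates 1 to 3 alone (133 shared). Leaving out 1 array of the comparison, with the third IAA array kept, gave 113 to 189 calls. The 122 calls against IAA alone became 59 with no replicate block, 398 without the third IAA array, where the share of higher calls was 50.8% in place of 66.4%, 38 with replicates 1 to 3 alone and 61 without both the third IAA array and the block, a setting added after seeing the data. The 275 calls against PEO-IAA alone became 552 without the third IAA array and 164 with replicates 1 to 3 alone. For PPBo plus IAA, 216 calls became 526 without the third IAA array and 138 with the filter at the 50th percentile, and the 75 calls with 100 nM IAA became 209 without that array. The 6 differences between the combined treatments became 85 without the third IAA array, 13 with a pseudocount 4 times as large and 10 without both that array and the block. Fewer arrays in a fit leave fewer degrees of freedom; the cause of the other changes was not tested. Of 41 called genes named, 26 kept their call in every setting that tested them (18 were run), 15 lost it in at least 1, and all 41 kept it without the third IAA array and with the contrast's arrays alone. With replicates 1 to 3 alone the 8 lost were GSTU25, GSTU26, ATGSTF13, GH3.5, AT2G41730, AT5G59490, AT5G60530 and AT5G62340, and ATGSTF13 was also lost with no filter. Of 25 uncalled genes, 7 were called in at least 1 setting. Of 1174 gene values under an alternative, 2 turned sign, both uncalled: AT4G30460 without PEO-IAA+IAA replicate 1 (-0.197 to 0.060 over the left-out arrays) and AT2G28390 without mock replicate 3 (-0.086 to 0.0096). Signal over background could not be judged without detection calls.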
